A study of Mus musculus with 4 samples.

Results

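The eIF2 kinases, the eIF2α subunit they phosphorylate, the inducible and constitutive phosphatase subunits, and the transcription factors and regulator that follow were examined in RNA-Seq of DCA-treated ILC2s. These were 10 genes (Eif2ak1, Eif2ak2, Eif2ak3, Eif2ak4, Eif2s1, Ppp1r15a, Ppp1r15b, Atf4, Ddit3, and Trib3) of the 27179 rows in the table, found by symbol. They were chosen on their place in the integrated stress response and with the DCA and vehicle values of these libraries known, so their changes are described below, with no p or call taken for them. Group 2 innate lymphoid cells (ILC2s), lymphocytes that lack antigen receptors and release type 2 cytokines, had been sorted from the large intestine of C57BL/6 WT mice and kept for 5 days with the cytokines IL-33, IL-25, IL-7, and IL-2, which all groups received. Deoxycholic acid (DCA), a bile acid made by gut bacteria, was then given at 100 μM, and the comparison asks how it alters RNA levels in ILC2s. There were 2 libraries labelled Ctrl, called vehicle here, and 2 of DCA-treated cells. The RNA-Seq methods of the paper describe culture with or without DCA and name no vehicle. DCA was present for 16 hours by the design text and for 24 hours by the methods of the paper. Mice across the study were within 6 to 14 weeks of age, and the methods give a narrower range, also from 6 weeks, for this strain. They give both sexes in one place and males alone for this strain in another. In all 4 libraries Xist had 0 counts and the Y-linked Ddx3y, Kdm5d, and Uty were expressed, as in male cells. Whether the libraries came from separate animals or cultures is not stated, so the spread below is that between these libraries and may be technical. The cells were grown apart from the tissue and from other cells, which limits them as a model of colonic ILC2s.

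In the integrated stress response, the kinases HRI, PKR, PERK, and GCN2 each sense a different stress and phosphorylate the α subunit of the translation factor eIF2. This lowers overall protein synthesis while ATF4 mRNA is translated more, and ATF4 in turn raises transcription of the genes for CHOP and TRIB3. Protein phosphatase 1 (PP1), guided by GADD34 or CReP, removes the phosphate again. PERK, which sits in the ER membrane, also forms a branch of the unfolded protein response (UPR). Phosphorylation of eIF2α and translation of ATF4 are not read by RNA-Seq, which measures the mRNAs only.

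The libraries held 35838342 and 26564059 counts (vehicle replicates 1 and 2) and 32102232 and 244165712 counts (DCA replicates 1 and 2), so DCA replicate 2 was much the deepest. Levels are given as CPM, counts scaled to library size, after TMM adjustment between libraries, and levels of different genes are compared only as TPM, which divides by gene length. All 12 ILC2 markers were expressed, summing to between 18500 and 23400 CPM in a library. Of 31 markers of other cell types, 10 had 0 counts in all 4 libraries, among them Cd4, Cd8a, Csf1r, and Il22, while 7 averaged at least 1 CPM. The 31 together summed to 113 to 123 CPM after vehicle against 80 to 86.4 CPM with DCA. The largest part was the B cell marker Cd79b, at 55.2 and 47.3 CPM after vehicle against 37.5 and 44.5 CPM with DCA. The T cell markers Cd3g (11.9 and 25.6 against 21.3 and 10.5 CPM) and Trac (6.13 and 7.99 against 5.76 and 4.65 CPM) were also expressed. The macrophage and monocyte markers, nearly all from Cd68, summed to 24.7 and 24 CPM after vehicle against 7.31 and 10.2 CPM with DCA, and the ILC2 markers Klrg1 (log2 fold change -0.74), Il1rl1 (-0.60), and Il2ra (0.47) passed an unadjusted p of 0.05 by the quasi-likelihood test of edgeR. The part of these markers in the changes below was not tested. A lower level can mean fewer cells with the transcript or less RNA per cell, which cannot be told apart in bulk RNA.

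Across all 10 genes, DCA-treated ILC2s had more Ddit3 and Trib3 RNA and less Eif2ak3, Eif2ak4, and Ppp1r15a RNA in both libraries than either vehicle library, while Eif2ak1, Eif2ak2, Eif2s1, Ppp1r15b, and Atf4 overlapped between treatments. Both DCA libraries thus lay above both vehicle libraries for 2 of the 10 genes, against 18.6% of the 11184 genes tested, and below both for 3 of the 10, against 14.7% of the genes tested. Since the values were known when the genes were chosen, nothing is read from these counts. No gene of the 11184 tested (0%) passed an adjusted p of 0.05 by the quasi-likelihood test of edgeR, while 478 passed an unadjusted p of 0.05. DESeq2 called 254 of 12702 genes (2%) at an adjusted p of 0.05. No call is taken from either test for the 10 genes. With 2 libraries against 2, an exact permutation test of a single gene cannot give a p below 0.333.

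**Figure D1:**
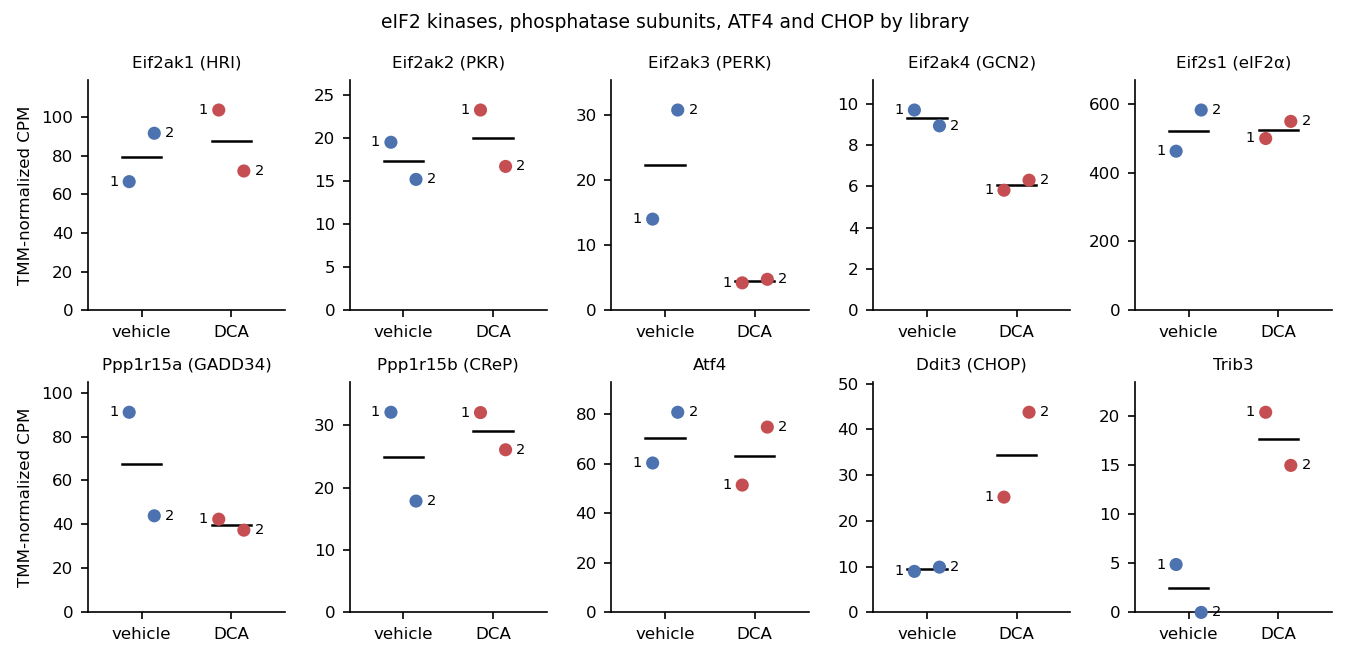
TMM-normalized CPM (vertical axes, each from 0) of the 10 genes in vehicle (blue) and DCA (red) libraries; points are libraries, numbered by replicate, and bars are means of 2. Ddit3 and Trib3 points are higher and Eif2ak3 and Eif2ak4 points lower in both DCA libraries, while the Atf4 and Eif2s1 points of the treatments interleave.

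Among the kinases, Eif2ak3 showed the largest difference between treatments. Eif2ak3 (Entrez gene 13666; chromosome 6, 70844484 to 70905241 on GRCm38) encodes PERK, the kinase that responds to unfolded protein in the ER lumen. It was at 14.03 and 30.8 CPM in vehicle replicates 1 and 2 and at 4.21 and 4.75 CPM in DCA replicates 1 and 2, from 513, 807, 136, and 1143 counts. The DCA libraries were close to each other and below both vehicle libraries, which differed from each other more than the DCA libraries did. The means were 22.4 ± 11.9 CPM (SD, n = 2) with vehicle and 4.48 ± 0.385 CPM (SD, n = 2) with DCA, 5.00-fold lower and a log2 fold change of -2.32 (SE 0.55, here and below computed on log2(CPM + 1)). The size of this difference depends on the vehicle libraries, with a log2 fold change of -2.81 without vehicle replicate 1 and -1.65 without vehicle replicate 2. Of all genes tested, 2.1% had a log2 fold change at or below that of Eif2ak3. An exon of an unnamed gene model on the other strand, Gm43292, covers part of Eif2ak3, 8.05% of its exon bases.

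The sequence upstream of Eif2ak3 is shown because it is the kinase gene with the lowest DCA level relative to vehicle, and because its window is rich in 1 short motif. RefSeq promoter windows on GRCm38.p6 (250 bases before to 50 after a transcript start) were available for 9 of the 10 genes, as 10 windows. The capitals mark CCAAT boxes (CCAAT, or ATTGG where the box is on the other strand), a motif that was picked for display after the windows were read. The stretch is chr6:70844265-70844483, plus strand, which ends before the first annotated Eif2ak3 exon.
Eif2ak3: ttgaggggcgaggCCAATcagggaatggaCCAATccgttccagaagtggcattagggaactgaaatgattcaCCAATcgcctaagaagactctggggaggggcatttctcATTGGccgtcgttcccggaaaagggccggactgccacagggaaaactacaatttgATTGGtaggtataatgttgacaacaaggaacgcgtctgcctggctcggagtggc
Its full window holds 6 CCAAT matches, 5 of them in this stretch, and 26 of 32851 windows (0.0791%) hold at least as many. At least 1 match is found in 37.4% of windows, including those of Atf4, Ddit3, and Eif2ak1. A match is a description of the letters, not a site of binding or a cause.

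Eif2ak4 (Entrez gene 27103; chromosome 2, 118388583 to 118475234) encodes GCN2, which senses uncharged tRNA when amino acids run short. Its level was 9.71 and 8.94 CPM after vehicle against 5.82 and 6.31 CPM with DCA. Here the libraries of each treatment lay close together and the treatments were apart. The mean was 9.33 ± 0.543 CPM (SD, n = 2) with vehicle and 6.06 ± 0.344 CPM (SD, n = 2) with DCA, 1.54-fold lower, with a log2 fold change of -0.62 (SE 0.073). Leaving out any library kept it between -0.68 and -0.57. A change this low or lower was found for 16% of all genes tested.

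The other kinases overlapped between treatments. Eif2ak1 (Entrez gene 15467; chromosome 5, 143817792 to 143902717) encodes HRI, the kinase that responds to low heme and to mitochondrial stress. It was at 66.7 and 91.7 CPM after vehicle against 103.8 and 72.2 CPM after DCA (log2 fold change 0.15, SE 0.34). Eif2ak2 (Entrez gene 19106; chromosome 17, 78850504 to 78882572) encodes PKR, which is activated by double-stranded RNA. Its level was 19.5 and 15.2 CPM after vehicle against 23.3 and 16.7 CPM after DCA (log2 fold change 0.20, SE 0.28). For both genes DCA replicate 1 was above both vehicle libraries and DCA replicate 2 lay between them. With DCA replicate 1 left out their log2 fold changes were -0.15 for Eif2ak1 and -0.062 for Eif2ak2. Exons of Aimp2 and Ankrd61 on the other strand cover 11.6% of Eif2ak1 exon bases, and Aimp2 was at up to 152 CPM in a library, so some Eif2ak1 counts may be shared if strand was ignored.

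Per length, HRI mRNA was the most abundant kinase mRNA in all 4 libraries, and PERK mRNA was a smaller part of the kinase total with DCA. Summed over the kinases, TPM was 55.5 and 68.3 with vehicle and 68.5 and 45.7 with DCA, so the totals overlapped between treatments. Eif2ak1 made up 61.2% and 63.5% of this total in vehicle replicates 1 and 2 and 75.2% and 72.2% in DCA replicates 1 and 2. The share of Eif2ak3 was 12.1% and 20.1% with vehicle and 2.87% and 4.47% with DCA. Eif2ak3 was thus the third kinase by level in vehicle replicate 1, the second in vehicle replicate 2, and the last in both DCA libraries. Eif2ak2 took 19.9% and 11.7% with vehicle and 18.7% and 18.5% with DCA, and Eif2ak4 took 6.78% and 4.71% against 3.21% and 4.80%, both with overlap between treatments. Using the longest transcript as the length instead of all exons, the Eif2ak3 share was 12.5% and 20.5% with vehicle and 2.97% and 4.62% with DCA.

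Eif2s1 (Entrez gene 13665; chromosome 12, 78862072 to 78887010) encodes eIF2α itself, the substrate that the kinases share. Its level was 462.9 and 582.8 CPM after vehicle against 499.9 and 549.7 CPM with DCA. Both DCA libraries lay between the vehicle libraries. The means were 523 ± 84.8 CPM (SD, n = 2) with vehicle and 525 ± 35.2 CPM (SD, n = 2) with DCA, with a log2 fold change of 0.0054 (SE 0.18) that ranged from -0.18 to 0.18 when a library was left out. The highest level per length among the 10 genes was that of Eif2s1, at 292.8 ± 32.3 TPM (SD, n = 2) with vehicle.

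Of the PP1 regulatory subunits, Ppp1r15a (Entrez gene 17872; chromosome 7, 45522917 to 45526268) encodes GADD34, the subunit that stress induces and that closes the feedback loop on eIF2α. It was at 91.0 and 43.9 CPM after vehicle against 42.4 and 37.4 CPM with DCA. Both DCA libraries were below both vehicle libraries, but only just, because vehicle replicate 2 was near the DCA level and vehicle replicate 1 was well above the rest. The means were 67.5 ± 33.3 CPM (SD, n = 2) with vehicle and 39.9 ± 3.53 CPM (SD, n = 2) with DCA, 1.69-fold lower. The log2 fold change was -0.76 (SE 0.52), and it was -1.19 without vehicle replicate 2 and -0.17 without vehicle replicate 1. The lower mean with DCA therefore rests mostly on vehicle replicate 1.

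Ppp1r15b (Entrez gene 108954; chromosome 1, 133131166 to 133139800) encodes CReP, the constitutive subunit. Its level was 32.1 and 17.9 CPM after vehicle against 32.04 and 26.1 CPM with DCA. The DCA libraries lay inside the vehicle range, with a log2 fold change of 0.22 (SE 0.43) that was 0.67 without vehicle replicate 1 and -0.14 without vehicle replicate 2. Taken against each other within a library, which cancels the scaling, Ppp1r15a had 2.84 and 2.46 counts for each Ppp1r15b count with vehicle and 1.32 and 1.43 with DCA. This ratio was lower in both DCA libraries and close between libraries of a treatment, although each gene varied by more between the vehicle libraries. On the TPM scale Ppp1r15a was 84.4% and 82.4% of the pair with vehicle and 71.6% and 73.2% with DCA. The Ppp1r15b promoter window was not in the table used, and 11.4% of its exon bases are shared with Gm26616 on the other strand.

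The bases just upstream of Ppp1r15a are shown because they hold the only full palindromic cAMP response element (TGACGTCA) in the windows of these genes. The capitals mark that element, at -12 to -5 relative to the RefSeq start (-1 is the base before the start and +1 the start itself), in chr7:45526269-45526298, minus strand.
Ppp1r15a: gagaccccgcctctccggTGACGTCAgcac
The element is in 1.79% of all windows on either strand. The UPR element core TGACGTGG, which begins with the same letters, is in 0.676% of all windows and in 0 of the 10 windows of these genes. ER stress elements were matched only in their full forms. The first form was in 0.119% and the second form in 0.0365% of all windows, and both were in 0 of those 10. Forms with a changed base were not searched for. A 0 therefore does not show that a window, such as that of Ddit3, lacks an ER stress element.

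**Figure D2:**
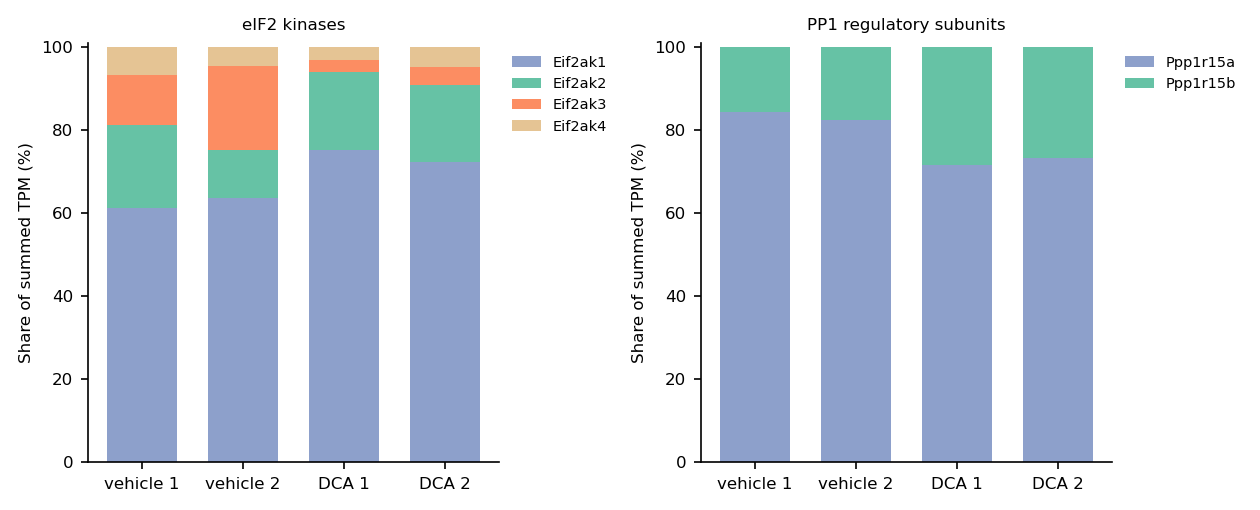
Share of summed TPM (vertical axes, percent) taken by each eIF2 kinase (left) and each PP1 regulatory subunit (right) in each of the 4 libraries. Eif2ak3 is 12.1% and 20.1% of the kinase total in the vehicle libraries and 2.87% and 4.47% in the DCA libraries.

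Atf4 (Entrez gene 11911; chromosome 15, 80255184 to 80257545) encodes the transcription factor whose translation rises when eIF2α is phosphorylated. It was at 60.4 and 80.9 CPM after vehicle against 51.5 and 74.9 CPM with DCA. The treatments overlapped, and DCA replicate 2 lay between the vehicle libraries. The mean was 70.6 ± 14.5 CPM (SD, n = 2) with vehicle and 63.2 ± 16.6 CPM (SD, n = 2) with DCA. The log2 fold change was -0.16 (SE 0.34), and it ranged from -0.46 without DCA replicate 2 to 0.072 without DCA replicate 1.

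Ddit3 (Entrez gene 13198; chromosome 10, 127290793 to 127296291) encodes CHOP, a transcription factor linked to cell death under lasting ER stress. It was at 8.97 and 9.90 CPM after vehicle against 25.2 and 43.7 CPM with DCA. Both DCA libraries were well above both vehicle libraries, and the vehicle libraries nearly coincided. The mean was 9.44 ± 0.654 CPM (SD, n = 2) after vehicle and 34.5 ± 13.1 CPM (SD, n = 2) after DCA, 3.65-fold higher, with a log2 fold change of 1.87 (SE 0.39). Relative to Atf4 in the same library, Ddit3 had 0.149 and 0.122 counts for each Atf4 count with vehicle and 0.490 and 0.584 with DCA. The ratio was higher in both DCA libraries. In proportion, the DCA libraries lay nearer each other in this ratio than in Ddit3 level, while the vehicle libraries lay further apart in it. Leaving out a library gave log2 fold changes from 1.42 (without DCA replicate 2) to 2.2 (without DCA replicate 1) and thinning DCA replicate 2 to 32100082 counts gave 1.87. Of all genes tested, 95.2% had a log2 fold change at or below that of Ddit3. Mars1, which lies on the other strand and shares part of the 10.9% of Ddit3 exon bases that overlap other models, was at 160 and 111 CPM after vehicle against 159 CPM in both DCA libraries.

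The window upstream of Ddit3 is shown because Ddit3 and Trib3 are the genes with more RNA in both DCA libraries. The capitals mark an AP-1 element (TGANTCA, in 7.81% of all windows on either strand) at -242 to -236 and a CCAAT box at -77 to -73, both picked for display after the windows were read. The stretch is chr10:127290543-127290792, plus strand.
Ddit3: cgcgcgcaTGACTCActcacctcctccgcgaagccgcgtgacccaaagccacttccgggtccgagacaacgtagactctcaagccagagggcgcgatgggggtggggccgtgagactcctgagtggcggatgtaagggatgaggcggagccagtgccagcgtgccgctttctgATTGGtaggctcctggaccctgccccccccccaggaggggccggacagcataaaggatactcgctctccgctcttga
Apart from Ddit3, only the Eif2ak3 window among these genes has an AP-1 match (TGATTCA, at -185 to -179).

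Trib3 (Entrez gene 228775; chromosome 2, 152337425 to 152344060) encodes a pseudokinase that is induced by ATF4 with CHOP and binds both ATF4 and AKT. It had 178 and 0 counts in vehicle replicates 1 and 2 and 657 and 3593 counts in DCA replicates 1 and 2. In CPM this was 4.87 and 0 with vehicle and 20.3 and 14.9 with DCA, and the 0 allows up to 3 counts, or 0.115 CPM, in vehicle replicate 2. Such limits cover counting error only, and would be larger if each read of a pair was counted. The DCA libraries did not overlap the vehicle libraries, with a mean of 2.43 ± 3.44 CPM (SD, n = 2) with vehicle and 17.6 ± 3.81 CPM (SD, n = 2) with DCA. The fitted log2 fold change was 2.85 (SE 1.29), and its size depends on the library at 0. Without vehicle replicate 2 it was 1.86. Without vehicle replicate 1 the vehicle group is at 0 and the fitted value of 13.8 is no bound. Relative to Atf4, Trib3 had 0.0807 and 0 counts for each Atf4 count with vehicle and 0.395 and 0.200 with DCA. The DCA libraries lay further apart, in proportion, in this ratio than in Trib3 level.

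The C/EBP-ATF element, the composite site that ATF4 is known to use with a C/EBP partner, was searched for as its core TTGCATCA and with the third base free, as TTNCATCA, which includes the core. Trib3 alone of these genes had a match, to the second form, at +15 to +22. It is shown beside the upstream element of Chac1, a listed ATF4 target, which has the exact core at -193 to -186. Chac1 was picked because it has a match. The windows of Sesn2 and Slc38a2, listed targets with more RNA after DCA at an unadjusted p of 0.05 by edgeR, hold neither form. The capitals mark the matches in chr2:152344030-152344059, minus strand (Trib3), and chr2:119351038-119351067, plus strand (Chac1).
Trib3: gattagctcaggtTTACATCAgccgggcgg
Chac1: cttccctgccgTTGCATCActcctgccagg
The exact core is in 0.895% of all 32851 windows, in 13 of 51 windows (25.5%) of the listed ATF4 targets, and in 0 of the 10 windows of the genes described here. The form with a free base is in 3.97% of all windows and 31.4% of the windows of the targets. The targets were listed as known ATF4 targets, so a high share among them follows from the list. No match says only that these letters are not in this window.

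**Figure D3:**
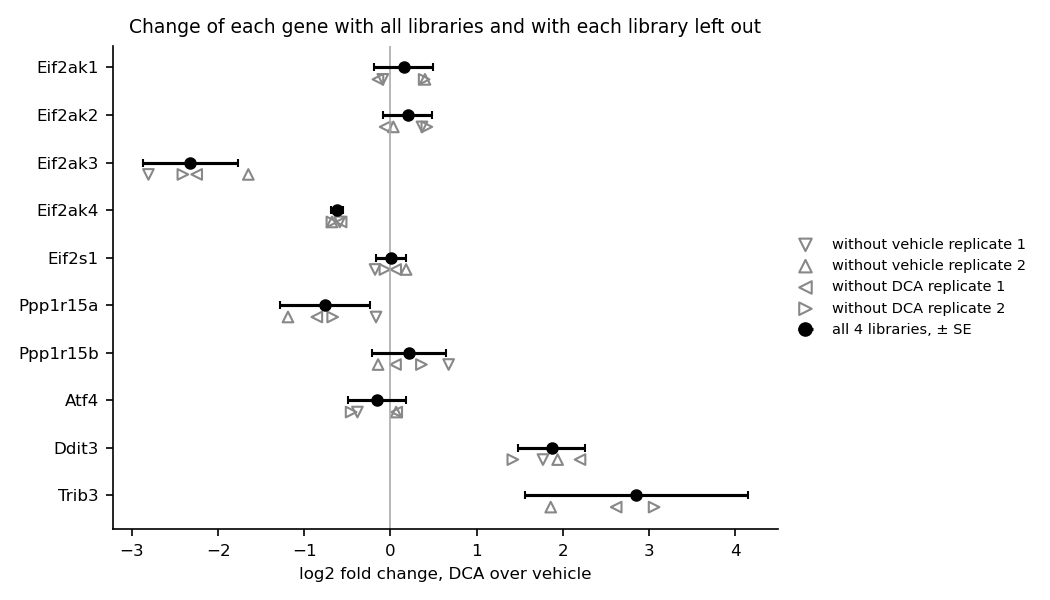
Log2 fold change (horizontal axis, DCA over vehicle) of the 10 genes with all 4 libraries (black, bar ± 1 SE) and with each library left out (open triangles). Ppp1r15a moves from -1.19 to -0.17 depending on the vehicle library left out, and the Trib3 value without vehicle replicate 1, 13.8, is beyond the axis and not drawn.

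By level per length in the vehicle libraries, the order of the 10 genes ran from Eif2s1 at 292.8 TPM through Atf4 at 82.9 ± 12.8, Ppp1r15a at 64.8 ± 34.9, Eif2ak1 at 38.7 ± 6.68, Ddit3 at 15.3 ± 0.263, Ppp1r15b at 12.6 ± 5.66, Eif2ak3 at 10.2 ± 4.95, Eif2ak2 at 9.50 ± 2.16, and Eif2ak4 at 3.49 ± 0.385 to Trib3 at 3.31 ± 4.68 TPM (SD, n = 2 each). Among neighbours in this order, the vehicle libraries were apart for Eif2s1 over Atf4, Eif2ak1 over Ddit3, and Eif2ak2 over Eif2ak4, and they overlapped for all other neighbours. With DCA, Ddit3 was at 41.4 and 66.2 TPM, which placed it above Eif2ak1 (51.5 and 33.0 TPM) by its mean of 53.8 TPM against 42.3 TPM, although the 2 genes overlapped over the DCA libraries. With the longest transcript as length they did not overlap (54.4 and 86.8 TPM for Ddit3, 50.2 and 32.1 TPM for Eif2ak1). Ddit3 was then second of the 10 in both DCA libraries, above Atf4 (53.3 and 71.3 TPM), though only just in DCA replicate 1. With all exons as length, Atf4 was instead above Ddit3 in both DCA libraries, at 61.4 and 82.3 TPM. The order of Ddit3 and Atf4 with DCA thus depends on the length used. Trib3, at 26.9 and 18.2 TPM with DCA, was above Ppp1r15b, at 16.1 and 12.1 TPM, in both DCA libraries, whereas in both vehicle libraries it was below it. Eif2ak3, at 1.97 and 2.05 TPM, was the lowest of the 10 in both DCA libraries, with Eif2ak4 next at 2.197 and 2.193 TPM.

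Beyond these genes, most listed ATF4 targets had small differences and a few low-abundance ones, with few or no counts in a vehicle library, had much higher values with DCA. Of 52 targets outside the 10 genes, 46 were tested, with 34 higher and 12 lower with DCA and a median log2 fold change of 0.14, against 0.0080 over all genes tested (5672 higher, 5512 lower). By the quasi-likelihood test of edgeR at an unadjusted p of 0.05, 4 of the 46 were higher, against 2.54% of all genes tested, and 0 were lower, against 1.73%. Chac1 and Sesn2, among these 4, averaged 0.19 and 0.21 CPM with vehicle and met the filter of 1 CPM only through the DCA libraries. The same holds for Vldlr, among the 34 higher. The lists were chosen with earlier results of these data known, so nothing is read from the share of higher genes. After adjustment no listed gene passed 0.05 by edgeR, and by DESeq2 3 of 97 did (Chac1 and Sesn2 higher, Trib2 lower), close to the 2% of all genes that DESeq2 called.

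The 4 were 2 amino acid transporters and 2 stress-induced genes. Slc38a2, which imports neutral amino acids and is induced when they are scarce, was at 81.2 and 63.3 CPM after vehicle against 114 and 119 CPM after DCA (log2 fold change 0.69, SE 0.18). Slc7a3, a carrier of cationic amino acids, was at 1.97 and 0.153 CPM after vehicle against 18.3 and 9.46 CPM after DCA (log2 fold change 3.70). For each transporter the DCA libraries did not overlap the vehicle libraries, and in vehicle replicate 2 Slc7a3 had 4 counts. The log2 fold change of Slc38a2 stayed between 0.52 and 0.85 with any library left out, and that of Slc7a3 was 2.82 without vehicle replicate 2 and 6.47 without vehicle replicate 1. Chac1, which degrades glutathione, was at 0.383 and 0 CPM after vehicle against 6.44 and 13.1 CPM with DCA. Sesn2, a stress-induced inhibitor of mTORC1 signaling, was at 0.410 and 0 CPM after vehicle against 16.1 and 4.21 CPM with DCA. Chac1 and Sesn2 were thus at 0 in the same vehicle library as Trib3, and the size of their change rests on few vehicle counts. Large gaps within a treatment also occurred with DCA, where the listed target Cth had 1 count in replicate 1 and 7375 in replicate 2. Why a library held 0 or few counts of a gene was not tested. The lowest value in the list was that of the cystine transporter gene Slc7a11, at 4.18 and 0.306 CPM after vehicle against 0.340 and 0.815 CPM with DCA, with overlap between treatments and a log2 fold change of -1.95 that was 0.90 without vehicle replicate 1. Asns, a much used ATF4 reporter gene for asparagine synthetase, was at 135 and 232 CPM after vehicle against 184 and 226 CPM with DCA, also with overlap, and was named after its values were seen. Atf3, often grouped with Ddit3 in this response, had 0 counts in all 4 libraries.

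Of 7 listed CHOP targets, 6 were tested and 0 passed an unadjusted p of 0.05 in either direction, with a median log2 fold change of 0.20. The list does not record whether CHOP raises or lowers each gene, so the median is no measure of CHOP activity. They ran from -0.26 for Ero1a, an ER oxidase, to 0.77 for Tnfrsf10b, the death receptor DR5. Tnfrsf10b was at 15.5 and 17.0 CPM after vehicle against 24.2 and 31.2 CPM with DCA, without overlap. The CHOP target median was 0.65 without vehicle replicate 1 and 0.023 without vehicle replicate 2.

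In 3 further lists the medians were near 0. The other eIF2 subunits, eIF2B, eIF5, and related factors (11 of 11 tested) had a median log2 fold change of 0.0097, a range from -0.29 (Eif2a) to 0.45 (Eif2b4), and 0 genes past an unadjusted p of 0.05. The near-identical X- and Y-linked copies of the γ subunit, Eif2s3x (31.2, 38.0, 56.6, and 35.4 CPM in vehicle 1, vehicle 2, DCA 1, and DCA 2) and Eif2s3y (107, 127, 111, and 121 CPM), may share reads, so their split is uncertain. The regulators upstream of the kinases (14 of 14 tested) had a median of 0.017 and ran from -0.87 for Impact, an inhibitor of GCN2 activation, to 0.50 for Oma1, the mitochondrial protease that acts upstream of HRI, and both overlapped between treatments. Hspa5, which encodes the ER chaperone BiP that holds PERK inactive, was at 1739 and 1667 CPM after vehicle against 1526 and 1484 CPM after DCA (log2 fold change -0.18, SE 0.036). Both DCA libraries were below both vehicle libraries for Hspa5, by a small margin, and 0 of the 14 passed an unadjusted p of 0.05. The PP1 catalytic subunits ran from -0.25 (Ppp1cb) to 0.19 (Ppp1cc), with overlap for all 3.

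Among the bZIP partners of ATF4 and CHOP, 7 of 12 were tested, and Fos was the 1 gene past an unadjusted p of 0.05. Fos, an immediate early gene whose product pairs in AP-1, was at 76.1 and 74.0 CPM after vehicle against 47.7 and 23.4 CPM after DCA (log2 fold change -1.08, SE 0.50). Its change was -0.65 when DCA replicate 2 was left out and -1.69 when DCA replicate 1 was. The highest was Cebpd (0.97), at 0.0547 and 7.72 CPM after vehicle against 8.67 and 6.57 CPM with DCA. This value was -0.048 without vehicle replicate 1 and 7.09 without vehicle replicate 2, so the vehicle library used decides it. The other UPR sensors and Xbp1 (6 of 7 tested) ran from -0.48 for Atf6 to 0.99 for Atf6b, with a median of 0.040 and 0 genes past an unadjusted p of 0.05, and Xbp1 itself was at -0.0074. Leaving out a library moved Atf6b between 0.35 (DCA replicate 1) and 1.43 (DCA replicate 2), and Atf6 between -0.82 (vehicle replicate 2) and -0.062 (vehicle replicate 1). In the Tribbles family, Trib2 differed from Trib3 in direction. Trib2, at 37.6 and 21.7 CPM after vehicle against 7.65 and 9.50 CPM with DCA, was lower in both DCA libraries (log2 fold change -1.79, SE 0.41, past an unadjusted p of 0.05 by edgeR), with -1.36 to -2.13 when a library was left out, and Trib1 had 0 counts in all 4 libraries. Over all lists together, 94 of 105 genes were tested, 4 were higher, against 2.54% of all genes, and 2 lower, against 1.73% of all genes, at an unadjusted p of 0.05, and the median log2 fold change was 0.061. The 4 higher genes include Chac1 and Sesn2, which met the filter of 1 CPM only through the DCA libraries, and the share of lower genes was close to that of all genes.

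**Figure D4:**
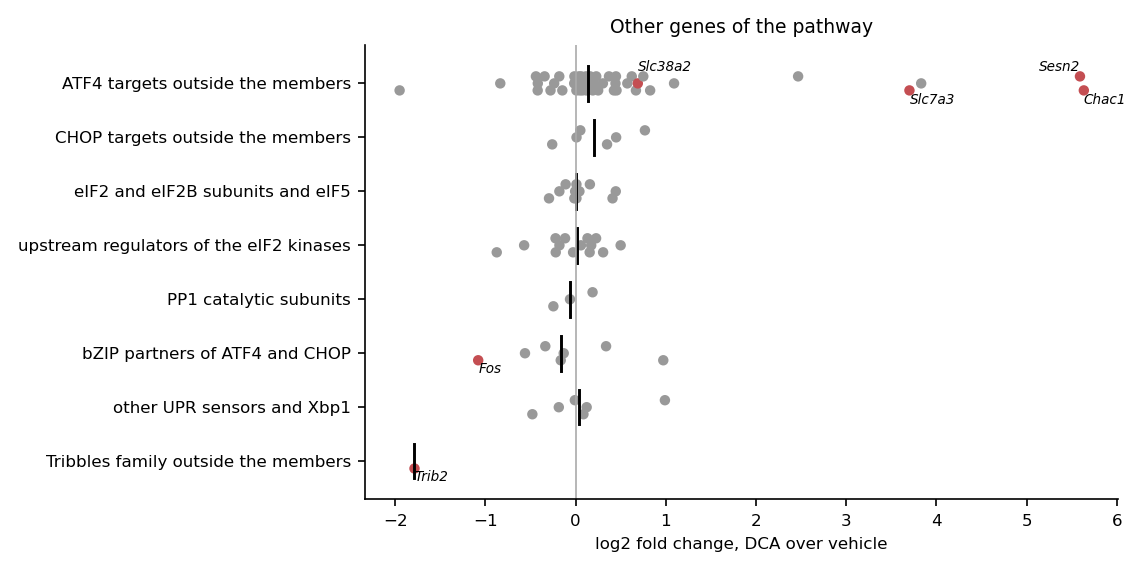
Log2 fold change (horizontal axis, DCA over vehicle) of each tested gene in 8 lists; points are genes, red where they passed an unadjusted p of 0.05 by edgeR, and black bars are list medians. The medians lie between -0.16 and 0.20 except for the Tribbles list with its single tested gene Trib2, and the 4 red points to the right are Slc38a2, Slc7a3, Sesn2, and Chac1.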

How the data were processed

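The libraries were grouped by their labels, Ctrl (called vehicle here) and DCA. RNA-Seq of 2 vehicle and 2 DCA-treated ILC2 libraries was re-analysed from the table of read counts per gene that the authors deposited. Its name refers to FPKM, but the values are whole numbers with a different total in each library. The submitters' processing notes name cutadapt 1.9, HISAT2 2.2.1, and mm10, and the paper names a SMART-Seq kit. The counting tool, annotation, and strand setting are not given in the sources used here. In each library more genes had 2 counts than 1 (484 against 253 in vehicle replicate 1), and whether each read of a pair was counted was not tested.

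TMM-scaled counts were tested with the quasi-likelihood model of edgeR 4.0.16 in R 4.3.3, two-sided and with Benjamini-Hochberg adjustment over all 11184 genes that averaged 1 CPM or more, a fit that held all 10 members but from which no p or call was taken for them. Rows lacking a symbol (1275 of 27179) were kept. SEs are of log2(CPM + 1), which understates the spread of low genes. TPM used the exon length of GENCODE M21 genes (21572 rows, at least 98% of counts). Motifs were searched on both strands of RefSeq windows.

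The members and lists were chosen with earlier results of these data known. Genes named are the members, listed genes past an unadjusted p of 0.05, and the extremes of each list. Hspa5, Xbp1, Asns, Atf3, Cth, Trib1, and the Eif2s3 pair were added after their values were seen. Alternatives were DESeq2 1.42.0, limma 3.58.1 (pseudocounts of 1 and 0.1), other scalings and filters, a replicate block, thinning of DCA replicate 2, and leaving out each library. The test was also run on simulated counts, from which nothing is read here.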

Additional observations from a re-analysis of the deposited data

How the results depend on the processing

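Genes past an adjusted p of 0.05 (0 by edgeR) numbered 254 with DESeq2 and 36 without a filter on low counts, and those past an unadjusted p of 0.05, 478 by edgeR, numbered 1242 and 847. Of the listed genes 0 passed by edgeR and 3 with DESeq2, while listed genes higher at an unadjusted p of 0.05 rose from 4 to 7 without a filter. The cause was not tested. No call for the 10 genes was taken under any alternative. Libraries with the same replicate number deviated from their group means with a correlation of 0.0197 across genes, which cannot show whether they shared an animal or a day. With the replicate block 0 genes passed 0.05 after adjustment and 450 before it, and Trib3 had a log2 fold change of 5.10, near the 4.64 from limma at a pseudocount of 0.1. Of 140 alternative values for the 10 genes, 131 moved by less than the spread between replicates and 9 by more. Leaving out 1 of 2 libraries moves a mean of log values by no more than this spread, so the count does not measure robustness. Eif2ak1, at 0.15 with all libraries and -0.15 without DCA replicate 1, changed sign and was still among the 131. The 6 listed genes past an unadjusted p of 0.05 stayed past it in every fit with all libraries that gave them a p. There were 9 such fits for Chac1, which the filter at 5 CPM dropped, and 10 for the others. These fits reuse the libraries by which the 6 were picked, so they are no independent check. Ddit3 was at 20.2 TPM with vehicle when the longest transcript set its length. With 2 libraries per treatment, any value that 1 vehicle library decides (Trib3, Ppp1r15a, Cebpd) has no second check, and the size of a change is poorly set where a vehicle library holds 0 or a few counts (Trib3, Chac1, Sesn2, Slc7a3).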
